A study of Mus musculus with 4 samples.

Results

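The 8 genes described here, Il23a, Il23r, Il17a, Il17f, Il17ra, Zbtb16, Blk and Ccr6, were taken by symbol from the 32285 genes of the count tables of 4 single-cell libraries of mouse prostate tumours. All 8 were found. TKO tumours (2 libraries) carried Nkx3.1CreERT2 and, among their floxed (L/L) alleles, those of Smad4 and Pygo2. DKO tumours (2 libraries) carried Nkx3.1CreERT2 and the same floxed alleles other than that of Pygo2, which they kept. In both genotypes Cre is made from the Nkx3.1 locus, which is active in prostate luminal epithelium, and tamoxifen induces it, so the immune cells measured here are those of the host around the recombined epithelium. The study's design names collection at 10 or 17 weeks after tamoxifen, and no label ties a library to either time. Nothing in the labels says whether the replicates of a genotype came from separate mice, and every p below therefore speaks of 4 libraries, whose spread could be technical rather than that of animals.

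IL-23 is secreted as a pair of the Il23a product and the Il12b product, the second of which it shares with IL-12. It binds the Il23r product together with the Il12rb1 product on lymphocytes, where signalling through STAT3 maintains production of IL-17A and IL-17F. These cytokines act on epithelium, fibroblasts and myeloid cells through a receptor made of the Il17ra and Il17rc products. Zbtb16 encodes the transcription factor PLZF of innate-like T cells, Blk a Src-family kinase of B cells that IL-17-producing gamma-delta T cells also express, and Ccr6 the receptor for the chemokine CCL20.

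On the mm10 build the GENCODE annotation places Il23a (ENSMUSG00000025383) at chr10:128296139-128298752 on the minus strand. Il23r (ENSMUSG00000049093) lies at chr6:67422932-67491855 on the minus strand, 46743 bases from Il12rb2, which encodes a subunit of the IL-12 receptor. Il17a (ENSMUSG00000025929, plus strand) lies at chr1:20730905-20734496 and Il17f (ENSMUSG00000041872, minus strand) at chr1:20777146-20790617, with 42649 bases between them. Il17ra (ENSMUSG00000002897) lies at chr6:120463247-120487559 on the plus strand and Zbtb16 (ENSMUSG00000066687) at chr9:48654297-48836222 on the minus strand. Blk (ENSMUSG00000014453) lies at chr14:63372836-63417037 on the minus strand and Ccr6 (ENSMUSG00000040899) at chr17:8236043-8257141 on the plus strand. All 8 are annotated as protein coding.

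The 250 bases before the RefSeq start are shown for the 4 members that the RefSeq promoter table (GRCm38.p6) holds, because Il23r, Il17a and Il17f are known genes of type 17 lymphocytes, and Ccr6 marks many such cells. Capitals mark AGGTCA, a hexamer that many nuclear receptors bind, and TATAAA, each on either strand, written in the direction of the gene. Ccr6 is shown at its first listed start. The RefSeq start of Il17f lies inside the gene span given above, which extends further upstream.
Il17a, chr1:20730655-20730904, plus strand: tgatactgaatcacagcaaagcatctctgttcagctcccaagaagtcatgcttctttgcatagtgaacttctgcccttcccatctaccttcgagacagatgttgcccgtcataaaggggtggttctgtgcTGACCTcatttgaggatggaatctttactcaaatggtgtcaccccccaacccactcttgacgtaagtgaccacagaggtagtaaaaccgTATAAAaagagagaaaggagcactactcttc
Il17f, chr1:20784271-20784520, minus strand: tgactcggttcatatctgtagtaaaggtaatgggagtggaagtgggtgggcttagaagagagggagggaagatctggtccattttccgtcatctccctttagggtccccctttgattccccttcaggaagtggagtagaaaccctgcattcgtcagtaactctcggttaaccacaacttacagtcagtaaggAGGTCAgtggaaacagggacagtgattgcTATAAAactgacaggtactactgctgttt
Il23r, chr6:67491856-67492105, minus strand: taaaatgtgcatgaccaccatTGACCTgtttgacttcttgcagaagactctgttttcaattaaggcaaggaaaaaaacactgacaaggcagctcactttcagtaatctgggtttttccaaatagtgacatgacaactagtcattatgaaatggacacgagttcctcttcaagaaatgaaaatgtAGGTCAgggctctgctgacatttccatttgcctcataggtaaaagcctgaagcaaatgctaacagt
Ccr6, chr17:8235793-8236042, plus strand: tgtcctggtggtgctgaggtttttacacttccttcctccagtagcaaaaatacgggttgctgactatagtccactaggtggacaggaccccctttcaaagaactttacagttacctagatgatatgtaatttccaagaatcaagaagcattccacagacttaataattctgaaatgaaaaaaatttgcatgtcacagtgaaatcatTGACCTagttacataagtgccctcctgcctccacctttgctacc
AGGTCA occurred once before Il17a, Il17f and Ccr6, starting 120, 58 and 44 bases before the start, and at 2 places before Il23r, 229 and 66 bases before it. Of the 32851 windows of the same length in the table, 14% held the motif on either strand. TATAAA stood 31 bases before the Il17a start and 29 bases before that of Il17f, against 12.4% of windows. A second listed start of Ccr6 held neither motif in its window, and a match of letters does not show that a factor binds there.

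The 4 libraries were tagged with antibody barcodes and loaded together on the 10x platform, and counts are unique molecular identifiers (UMIs), each standing for a captured transcript. Of 3508 barcodes 3381 passed the filters, with 1208 and 797 cells in TKO libraries and 617 and 759 in DKO libraries, and 9167770 to 18360201 UMIs a library. The median depth was 8404 to 10310 UMIs a cell. Between libraries 0 barcodes were shared, and the leading antibody tag of every kept cell was that of its own library. Where cells were assigned to libraries by these tags, both follow from that step, so they check no label. Pygo2, the gene deleted in TKO epithelium, was found in epithelial-like cells at 16.0 and 7.24 CPM (a gene's UMIs scaled to a common total of all UMIs of the same cells) in TKO tumours and 8.95 and 8.70 CPM in DKO tumours. A 3′ tag outside the floxed part checks no label, and whether these tags lie inside it was not tested. Cell groups were built by clustering without the 8 members and their related genes and were named "-like" from marker genes. Epithelial-like cells numbered 201 and were led by the secretory genes Svs5, Svs2 and Wfdc2 and the luminal keratin Krt8. With finer clustering (resolution 2.0) they formed a cluster of 125 cells led by Svs5, Svs2 and Svs4. Another of 76 cells was led by Wfdc2, Psca and Wfdc18. Which of the epithelial-like cells are prostate tumour cells was not tested, and values below are for the whole group.

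**Figure D1:**
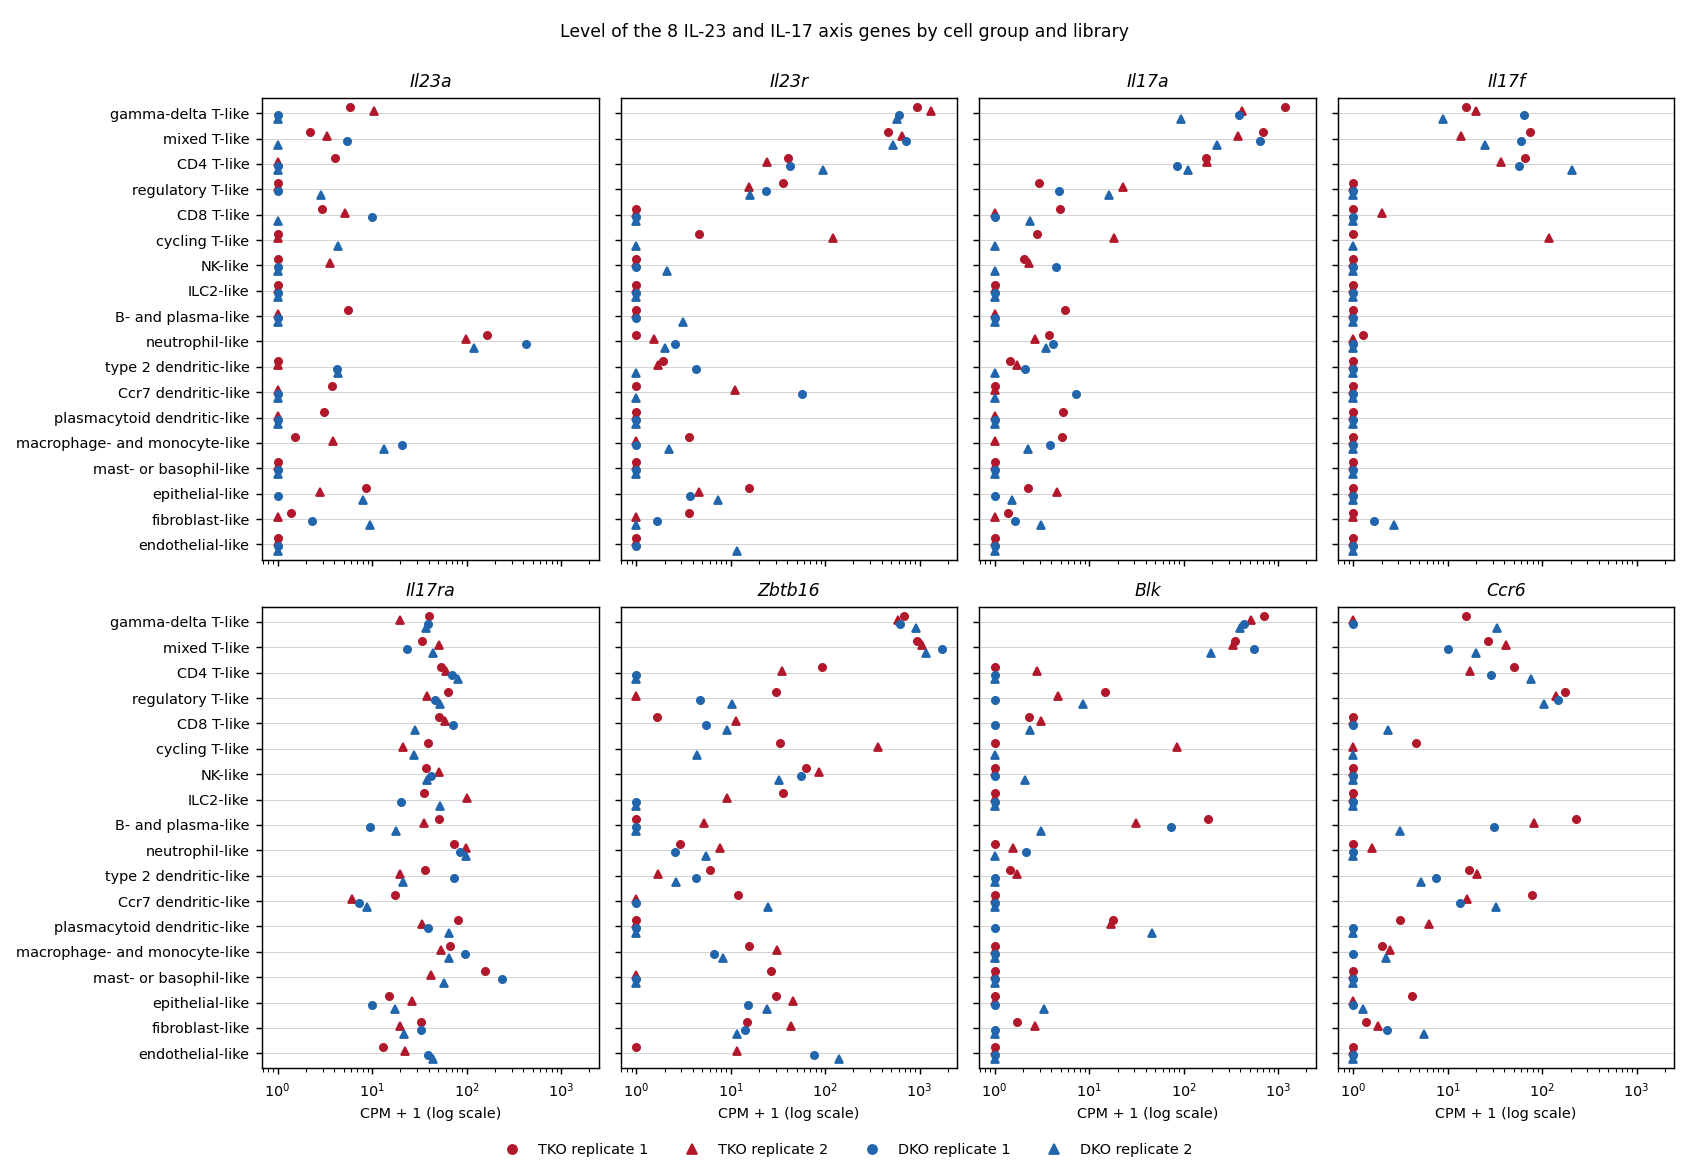
Level of each member (CPM + 1, log scale) in 18 named cell groups, 1 point for each library. Il23a stands apart in neutrophil-like cells, and Il23r and Zbtb16 in gamma-delta and mixed T-like cells. Blk is highest in gamma-delta and mixed T-like cells. The lowest mixed T-like library (193 CPM) is only just above the highest B- and plasma-like library (182 CPM). Il17a of gamma-delta T-like cells overlaps that of CD4 T-like cells, Ccr6 of regulatory T-like cells overlaps that of B- and plasma-like cells, and Il17ra has points above 0 in every group.

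Il23a, the IL-23-specific subunit, was found mostly in neutrophils. Neutrophil-like cells held 2079 of its 2209 UMIs (94.1%), of which 1075 came from DKO replicate 1. Their share of a library's Il23a UMIs was 96.1% and 92.4% in TKO tumours and 97.4% and 78.9% in DKO tumours, although they made up 35.3% to 54.6% of the cells of a library. Its level there was 166 and 96.9 CPM in TKO tumours and 421 and 118 CPM in DKO tumours. At least 1 Il23a UMI was present in 84 of 512 and 34 of 281 neutrophil-like cells of TKO tumours (16.4% and 12.1%) and in 81 of 337 and 38 of 289 of DKO tumours (24.0% and 13.1%). The exact binomial 95% intervals were 13.3% to 19.9% and 8.53% to 16.5% in TKO tumours and 19.6% to 29.0% and 9.48% to 17.6% in DKO tumours, and they cover counting error only. DKO replicate 1 was the highest library, with an interval that overlaps that of TKO replicate 1 by a small margin and neither of the others. In T- and NK-like cells, which serve here as the background that free RNA can give, 0.866% to 2.90% of cells had an Il23a UMI, at a deeper median of 11479 UMIs against 6827 UMIs in neutrophil-like cells.

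Within the neutrophils the level of Il23a was highest in 1 cluster of 160 cells. This cluster was led by the chemokine genes Ccl3 and Ccl4, the receptor gene Clec4e and the alarmin gene Il1a. It had 57 and 35 cells in TKO tumours and 56 and 12 in DKO tumours, so its DKO replicate 2 value rests on 12 cells. Its cells had 624 and 509 CPM of Il23a in TKO tumours and 1381 and 865 CPM in DKO tumours. This cluster ranked first of the 5 neutrophil clusters in each of the 4 libraries. The next cluster of the same library stood at 197 and 51.7 CPM in TKO tumours and at 561 and 157 CPM in DKO tumours. The first-ranked cluster held 245 of 597 and 111 of 171 neutrophil Il23a UMIs in TKO tumours. In DKO tumours it held 524 of 1075 and 65 of 236. In DKO replicate 2 a cluster of 60 cells held more, 71 UMIs. Il23a was not used to form the clusters, but the ranking is given as a description because genes that go with it were used. The neutrophil cluster led by S100a8, S100a9, G0s2 and Hp had 52 cells. Il23a stood there at 15.4 and 0 CPM in TKO tumours and 0 and 6.34 CPM in DKO tumours. Single cells reached 57 and 26 Il23a UMIs in TKO tumours and 85 and 50 in DKO tumours.

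Other groups held little Il23a. Epithelial-like cells had 12 and 1 UMIs in TKO tumours and 0 and 27 in DKO tumours, and fibroblast-like cells 1 and 0 in TKO tumours and 2 and 20 in DKO tumours, of which 1 cell of DKO replicate 2 held 18. In DKO replicate 2 these were 9.03% and 6.69% of the library's Il23a UMIs. Macrophage- and monocyte-like cells had 1 and 2 UMIs in TKO tumours and 21 and 10 in DKO tumours, of which 1 cell of DKO replicate 1 held 20 and 1 cell of DKO replicate 2 held 7. The same sums carried neutrophil markers at 352 and 468 CPM in TKO tumours and 594 and 1639 CPM in DKO tumours (11 genes), and their part in the Il23a counts was not tested. Type 2 and Ccr7 dendritic-like cells together had an Il23a UMI in 1 of 88 and 0 of 55 cells of TKO tumours and in 3 of 38 and 1 of 43 of DKO tumours. The shares were 1.14% and 0% in TKO tumours, where 0 of 55 cells allows a share of cells with a UMI of up to 5.45% by the limit of 3 counts and of up to 6.49% by the exact interval, and 7.89% and 2.33% in DKO tumours. Each of the 4 exact intervals holds shares seen in the T- and NK-like background, at more than its depth (a median of 28606 UMIs a cell).

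Il12b, the partner subunit, lay elsewhere. In Ccr7 dendritic-like cells, the migratory dendritic cells, it reached 424 and 401 CPM in TKO tumours and 6.24 and 0 CPM in DKO tumours. It was found in 5 of 15 and 4 of 9 such cells of TKO tumours and in 1 of 6 and 0 of 5 of DKO tumours. A single cell held 134 of the 153 UMIs of TKO replicate 1 and another 70 of the 79 of TKO replicate 2, and without them the level was 59.9 and 54.1 CPM in TKO tumours. Neutrophil-like cells had 0 CPM of Il12b in 3 libraries and 0.783 CPM in DKO replicate 1. Over all cells 295 had an Il23a UMI and 28 an Il12b UMI, and 2 cells had both. So few Il12b-positive cells cannot show whether the genes avoid the same cell, which was not tested. Single cells of other groups also held many Il12b UMIs, with 53 in a macrophage- or monocyte-like cell of TKO replicate 2 and 73 in a fibroblast-like cell of DKO replicate 2. Il12rb1, the receptor chain shared by both cytokines, had 9.74 and 28.3 CPM in gamma-delta T-like cells of TKO tumours and 16.9 and 16.1 CPM in those of DKO tumours.

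**Figure D2:**
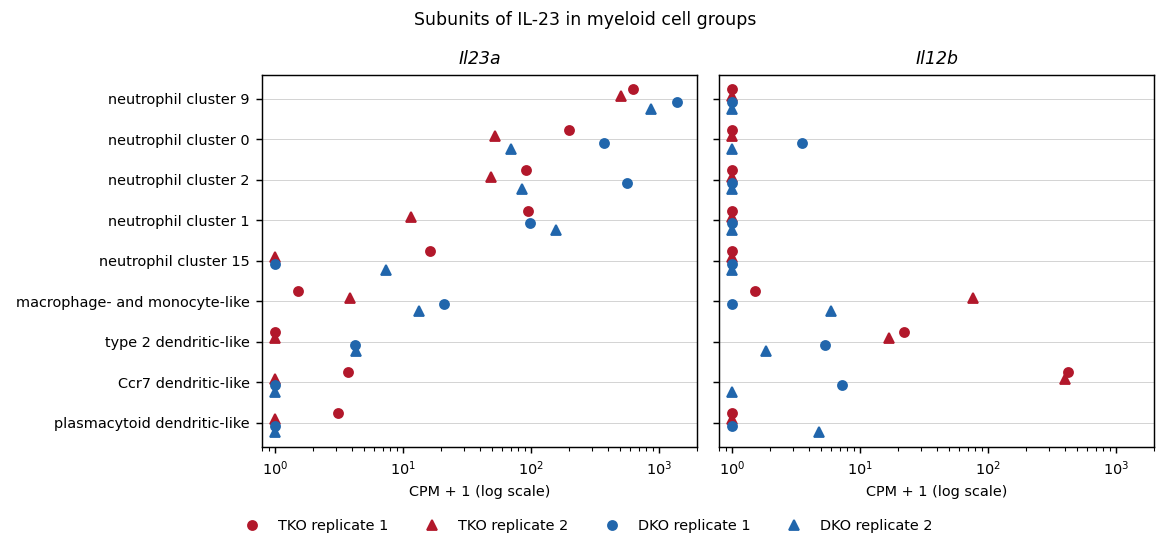
CPM + 1 (log scale) of Il23a and Il12b in the 5 neutrophil clusters and in other myeloid groups, 1 point for each library. Il23a is highest in neutrophil cluster 9 in each library, at 509 to 1381 CPM (12 cells in DKO replicate 2). Il12b is highest in the Ccr7 dendritic-like cells of the TKO tumours, at 424 and 401 CPM, or 59.9 and 54.1 CPM without the highest cell of each library.

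Il23r, the receptor chain specific for IL-23, marked 2 groups of T-like cells. Mixed T-like cells held 1420 of its 2260 UMIs (62.8%) and gamma-delta T-like cells 620 (27.4%). Gamma-delta T-like cells (73 cells) expressed Trdc, the constant region of the delta chain, with Cd163l1, a scavenger receptor gene of IL-17-producing gamma-delta T cells, and Trdv4. Mixed T-like cells (215 cells) were named T-like from CD3 and other T cell genes only. Il23r, Zbtb16, Il17a and Blk were among their 10 leading genes without having been used to cluster them, so the levels by group are descriptions. Their cells divided into 54 with Trdc and no Trac (alpha-chain constant region), 104 with Trac and no Trdc, 29 with both and 28 with neither. Gamma-delta T-like cells divided into 51 with Trdc and no Trac, 21 with both and 1 with neither.
Il23r stood at 930 and 1321 CPM in gamma-delta T-like cells of TKO tumours and 611 and 578 CPM in those of DKO tumours. In mixed T-like cells it had 463 and 659 CPM in TKO tumours and 715 and 523 CPM in DKO tumours, so the 2 groups overlap across libraries. An Il23r UMI was present in 95% and 100% of gamma-delta T-like cells of TKO tumours and 91.7% and 89.5% of those of DKO tumours. CD4 T-like cells followed at 39.8 and 23.4 CPM in TKO tumours and 41.8 and 94.8 CPM in DKO tumours, with every library below every library of the groups above. Regulatory T-like cells had 35.3 and 14.7 CPM in TKO tumours and 22.8 and 15.2 CPM in DKO tumours, which overlaps CD4 T-like cells. Neutrophil-like cells had an Il23r UMI in 0% and 0.356% of cells of TKO tumours and 1.19% and 0.692% of those of DKO tumours.

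Il17a, the effector cytokine, followed the receptor. Mixed T-like cells held 1179 of its 1861 UMIs (63.4%), gamma-delta T-like cells 405 (21.8%) and CD4 T-like cells 182 (9.78%). Its level in gamma-delta T-like cells was 1198 and 415 CPM in TKO tumours and 388 and 92.3 CPM in DKO tumours. In mixed T-like cells it was 686 and 379 CPM in TKO tumours and 638 and 225 CPM in DKO tumours. CD4 T-like cells had 172 and 177 CPM in TKO tumours and 83.6 and 110 CPM in DKO tumours. Mixed T-like cells were above CD4 T-like cells in every library and the ranges of these 2 groups do not overlap, whereas the range of gamma-delta T-like cells overlaps both. The share of gamma-delta T-like cells with an Il17a UMI was 60% and 40% in TKO tumours and 41.7% and 31.6% in DKO tumours. For background, neutrophil-like cells had an Il17a UMI in 1.95% and 1.07% of cells of TKO tumours and 2.37% and 1.73% of those of DKO tumours.
Il17a was uneven between cells of the same group. Among 159 Il17a-positive T- and NK-like cells, 57 had only 1 or 2 UMIs and the median was 5. The 49 cells with 10 or more UMIs held 79.9% of the UMIs. The highest cell had 158 UMIs in TKO replicate 1, 61 in TKO replicate 2, 62 in DKO replicate 1 and 33 in DKO replicate 2. Cells with 10 or more UMIs numbered 22 of 359 and 17 of 310 T- and NK-like cells in TKO tumours. In DKO tumours they numbered 6 of 113 and 4 of 231. They held 87.8% and 74.1% of the Il17a UMIs in TKO tumours and 82.6% and 53.2% in DKO tumours.

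**Figure D3:**
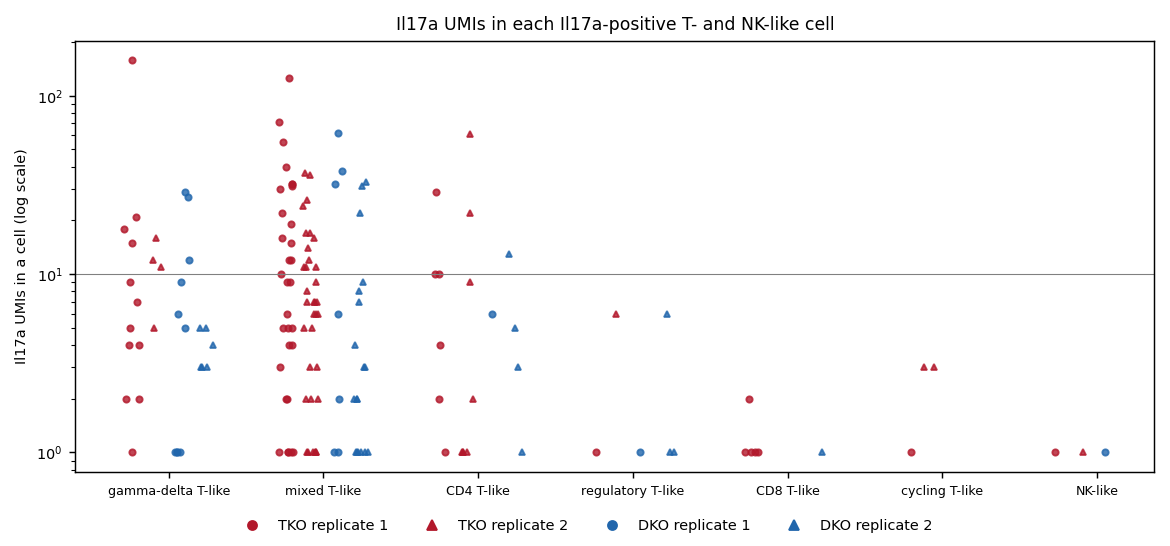
Il17a UMIs (log scale) in each of the 159 Il17a-positive T- and NK-like cells, by cell group and library, with a line at 10 UMIs. Most cells above the line are gamma-delta or mixed T-like, a few are CD4 T-like, and the highest holds 158 UMIs.

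Il17f, the close homologue and neighbour of Il17a, was sparse, with 255 UMIs in all. CD4 T-like cells had 64.3 and 36.0 CPM in TKO tumours and 55.7 and 204 CPM in DKO tumours. Mixed T-like cells had 73.1 and 12.9 CPM in TKO tumours and 58.4 and 23.9 CPM in DKO tumours. Gamma-delta T-like cells had 14.6 and 18.9 CPM in TKO tumours and 63.2 and 8.03 CPM in DKO tumours. The groups overlap, and 1 cycling T-like cell of TKO replicate 2 alone held 40 UMIs and 1 CD4 T-like cell of DKO replicate 2 held 38. Of 51 Il17f-positive T- and NK-like cells, 41 also had an Il17a UMI (80.4%), which is 25.8% of the Il17a-positive cells. In CD4 T-like cells 10 of the 19 Il17a-positive cells had Il17f, against 7 of 32 in gamma-delta T-like cells.

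The groups differed in which other members their Il17a-positive cells carried. In gamma-delta T-like cells 30 of the 32 Il17a-positive cells had Il23r, 32 had Zbtb16 and 29 had Blk, whereas 1 had Ccr6. Among mixed T-like cells 77 of 90 had Il23r, 84 had Zbtb16, 75 had Blk and 25 had Ccr6. In CD4 T-like cells 7 of 19 had Il23r, 5 had Zbtb16, 0 had Blk and 6 had Ccr6. These are shares of cells with a UMI at median depths of 9985, 10728 and 9729 UMIs. Cells of a library are not replicates, so no test is given. Among all cells of these groups, in the same order, Il23r was in 89.5% to 100%, 83.8% to 94.7% and 11.1% to 20.7% by library. Blk was in 80% to 95.8%, 63.2% to 81.1% and 0% to 1.72%. Ccr6 was in 0% to 10.5%, 10.5% to 28.4% and 6.90% to 27.8%. Whether Il17a-positive cells differ from the rest of their group was not tested.

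Zbtb16 was the most abundant member, with 4221 UMIs, of which 65.8% lay in mixed T-like cells. It stood there at 934 and 1071 CPM in TKO tumours and 1731 and 1173 CPM in DKO tumours, and in gamma-delta T-like cells at 687 and 585 CPM in TKO tumours and 615 and 919 CPM in DKO tumours. Within mixed T-like cells those with Trdc and no Trac had 523 and 394 CPM in TKO tumours and 611 and 397 CPM in DKO tumours. Those with Trac and no Trdc had 1279 and 1430 CPM in TKO tumours and 2140 and 1423 CPM in DKO tumours, above every library of the cells with Trdc. Il23r did not follow this split, with 449 and 416 CPM in TKO tumours and 963 and 469 CPM in DKO tumours among cells with Trdc and no Trac. Among cells with Trac and no Trdc it had 513 and 752 CPM in TKO tumours and 624 and 601 CPM in DKO tumours. The DKO replicate 1 values rest on 4 and 10 cells. NK-like cells had Zbtb16 at 62.2 and 84.4 CPM in TKO tumours and 55.2 and 31.5 CPM in DKO tumours, and epithelial-like cells at 29.4 and 45.2 CPM and at 14.3 and 23.5 CPM. In neutrophil-like cells 1.37% and 3.56% of cells of TKO tumours and 1.19% and 2.08% of DKO tumours had a Zbtb16 UMI.

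Blk was found in the same 2 T-like groups and in the B lineage. Gamma-delta T-like cells had 706 and 519 CPM in TKO tumours and 438 and 393 CPM in DKO tumours. Mixed T-like cells had 353 and 334 CPM in TKO tumours and 562 and 193 CPM in DKO tumours. B- and plasma-like cells had 182 and 30.1 CPM in TKO tumours and 73.0 and 2.12 CPM in DKO tumours. Plasmacytoid dendritic-like cells had 17.1 and 16.2 CPM in TKO tumours and 0 and 45.4 CPM in DKO tumours. Of 239 Blk-positive T- and NK-like cells 206 had Il23r. Neutrophil-like cells had Blk in 0% and 0.356% of cells of TKO tumours and 0.890% and 0% of those of DKO tumours.

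Ccr6 had its highest mean level in regulatory T-like cells, which led in 3 of 4 libraries, at 173 and 140 CPM in TKO tumours and 145 and 104 CPM in DKO tumours, in 56.1% and 58.3% and in 51.9% and 58.3% of cells. B- and plasma-like cells had 227 and 81.6 CPM in TKO tumours and 30.1 and 2.12 CPM in DKO tumours, a range that spans that of regulatory T-like cells and is above it in TKO replicate 1. CD4 T-like cells had 49.0 and 16.2 CPM in TKO tumours and 27.9 and 74.8 CPM in DKO tumours, and mixed T-like cells 25.9 and 41.0 CPM and 8.99 and 18.8 CPM. Gamma-delta T-like cells had Ccr6 in 4 of 73 cells, at 14.6 and 0 CPM in TKO tumours and 0 and 32.1 CPM in DKO tumours. Ccr7 dendritic-like cells had 77.5 and 15.2 CPM in TKO tumours and 12.5 and 31.5 CPM in DKO tumours.

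Il17ra, a chain of the receptor for IL-17A and IL-17F, was detected in every named group. Over all cells it was present in 39.1% and 40% of cells of TKO tumours and 39.7% and 39.7% of those of DKO tumours. Neutrophil-like cells held 850 of 2438 UMIs, at 73.6 and 98 CPM in TKO tumours and 84.5 and 98.3 CPM in DKO tumours. Macrophage- and monocyte-like cells had 65.6 and 52.8 CPM in TKO tumours and 94.3 and 64.3 CPM in DKO tumours. Fibroblast-like cells had 32.1 and 18.8 CPM in TKO tumours and 32.1 and 20.9 CPM in DKO tumours, and epithelial-like cells 14.1 and 25.3 CPM and 8.95 and 16.3 CPM. Il17rc, the chain that pairs with it for IL-17A and IL-17F, was present in 53.6% and 67.9% of fibroblast-like cells of TKO tumours and 57.1% and 41.5% of those of DKO tumours, and in 25% and 34.6% of epithelial-like cells of TKO tumours and 42.9% and 34.1% of those of DKO tumours. Neutrophil-like cells had Il17rc at only 0.555 to 2.27 CPM, in 0.391% to 1.42% of cells. Macrophage- and monocyte-like cells had it at 0 CPM in each of the 4 libraries. The T-like groups that hold most Il17a also had Il17rc. It stood at 4.22 to 37.8 CPM in gamma-delta T-like cells, in 4.17% to 30% of cells. In mixed T-like cells it stood at 8.54 to 14.1 CPM, in 8.33% to 16.2% of cells. Epithelial-like cells had 14.1 to 25.3 CPM. Il17re, the chain that binds IL-17C, had 90.8 and 109 CPM in mixed T-like cells of TKO tumours. In those of DKO tumours it had 40.5 and 51.2 CPM. In epithelial-like cells it had 23.6 and 34.4 CPM in TKO tumours and 18.8 and 19.8 CPM in DKO tumours.

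**Figure D4:**
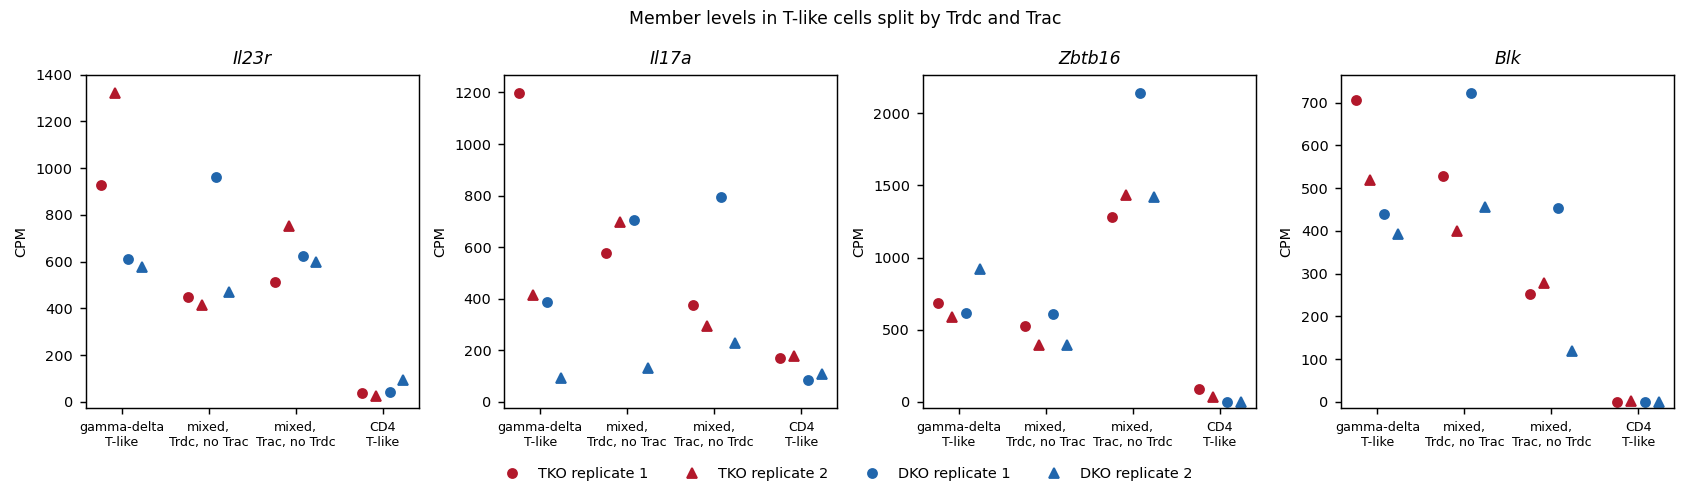
CPM of 4 members in gamma-delta T-like cells, in mixed T-like cells split by Trdc and Trac, and in CD4 T-like cells, 1 point for each library. Zbtb16 is higher in the cells with Trac and no Trdc (1279 to 2140 CPM) than in those with Trdc and no Trac (394 to 611 CPM) in every library, and Blk is near 0 in CD4 T-like cells.

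Which T cells carry the axis was tested with a gate on 1 gene inside the T-like clusters, by comparing T-like cells with a Trdc UMI (59 and 41 cells of TKO tumours, 30 and 40 of DKO tumours) with other CD3-positive T-like cells (237 and 215, 62 and 135). Counts were summed for each library and fitted with edgeR's quasi-likelihood test with library as a block. Of 7195 genes tested 1034 passed a Benjamini-Hochberg adjusted p of 0.05, which is 14.4%. In Trdc-positive cells 584 of the 7195 (8.12%) were higher and 450 were lower. Il23r, Zbtb16 and Blk were higher, 3 of the 7 members tested. Il23a had too few counts to be tested. Only 40 and 25 of the Trdc-positive cells of TKO tumours and 22 and 21 of those of DKO tumours had 0 Trac UMIs. The Trdc-positive cells were 82 mixed T-like, 72 gamma-delta T-like and 16 other cells. The cells they were set against were 256 CD8, 131 mixed, 121 regulatory, 111 CD4, 29 cycling and 1 gamma-delta T-like cells, so the comparison is largely one with other T cell types.

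Il23r had 467, 694, 621 and 423 CPM in Trdc-positive cells of TKO replicates 1 and 2 and DKO replicates 1 and 2, against 86.1, 167, 157 and 125 CPM in the other cells of the same libraries. The 2 sets of cells do not overlap, and the log2 difference was 2.09 ± 0.13 (SE, edgeR adjusted p = 1.9e-07). Blk had 482, 406, 448 and 332 CPM in Trdc-positive cells, against 32.2, 70.5, 125 and 21.2 CPM in the others. Its log2 difference was 3.07 ± 0.46 (SE, edgeR adjusted p = 0.019), and without TKO replicate 2 it no longer passed (adjusted p = 0.078), nor did it with no filter on low counts (adjusted p = 0.099). Zbtb16 had 503, 551, 605 and 641 CPM in Trdc-positive cells, against 199, 333, 494 and 288 CPM in the others, a log2 difference of 0.92 ± 0.16 (SE, edgeR adjusted p = 0.0027). Within mixed T-like cells alone Zbtb16 went the other way in every library, with 394 to 611 CPM in cells with Trdc and no Trac, against 1279 to 2140 CPM in cells with Trac and no Trdc. Over the whole gate each of the 3 was higher in Trdc-positive cells in 4 of 4 libraries.

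Il17a had 941, 456, 407 and 145 CPM in Trdc-positive cells, against 66.0, 101, 161 and 53.6 CPM in the others. It was higher in 4 of 4 libraries and its log2 difference of 2.31 ± 0.57 (SE) missed the threshold (edgeR adjusted p = 0.098). It passed with DESeq2 (adjusted p = 0.0012), without library as a block (0.049) and when TKO replicate 1 was left out (1.9e-04). Over all alternatives its adjusted p ran up to 0.33. Il17f had a log2 difference of 2.10 ± 0.91 (SE, edgeR adjusted p = 0.28), and it passed without DKO replicate 2 (adjusted p = 0.0017). Il17ra differed by 0.07 ± 0.20 on the log2 scale and Ccr6 by -0.68 ± 0.39 (SE, edgeR adjusted p = 0.88 and 0.32), of which Il17ra changed sign without TKO replicate 1 (-0.02) and in Trdc-positive cells with 0 Trac UMIs (-0.07).

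Of the other genes of the pathway, 6 of 9 type 17 transcription factor genes tested were higher in Trdc-positive cells and 1 was lower. Over all 7195 genes tested, 584 were higher and 450 lower. The median log2 difference of the 9 was 0.52, against -0.0028 over all genes tested. Sox13, a factor of gamma-delta T cell development, was higher by 4.44 ± 0.51 (SE, edgeR adjusted p = 5.9e-05), and Maf, which is needed by IL-17-producing gamma-delta T cells, by 0.66 ± 0.11 (adjusted p = 7.5e-04). Batf, a partner of AP-1 factors, was lower by -1.02 ± 0.18 (adjusted p = 0.0014). Runx1, Hif1a and Rora also passed and were higher, by 0.52, 0.45 and 0.52 on the log2 scale. Hif1a lost its call without TKO replicate 1 (adjusted p = 0.073), DKO replicate 2 (0.10) or library as a block (0.059). Rora lost it without TKO replicate 1 (adjusted p = 0.11), TKO replicate 2 (0.092), DKO replicate 2 (0.068) or library as a block (0.064).

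Receptor and signalling genes moved both ways, with 2 of 10 higher and 4 lower and a median log2 difference of -0.75. For each list here, the counts over all genes tested are 584 higher and 450 lower of 7195. Il1r1, the IL-1 receptor, had 360, 797, 737 and 444 CPM in Trdc-positive cells, against 95.4, 168, 205 and 122 CPM in the others, and was higher by 2.0 ± 0.12 (SE, edgeR adjusted p = 1.0e-07). Il7r, the IL-7 receptor, was higher by 1.14 ± 0.11 (adjusted p = 1.1e-05). Il12rb2, Il21r, Jak2 and Stat3 were lower, by -2.64, -1.21, -1.11 and -0.66 on the log2 scale. Effector and surface genes had 6 of 9 higher and 1 lower. They include Cd163l1 at 7.95 ± 0.21, the inflammatory cytokine Tnf at 1.75 ± 0.20, the chemokine receptors Ccr2 at 1.31 ± 0.13 and Cxcr6 at 1.08 ± 0.14, and the IL-18 receptor chain Il18r1 at 1.25 ± 0.10 on the log2 scale. The scavenger receptor-like 5830411N06Rik was also higher, by 2.86 ± 0.40, and Il18rap, the other IL-18 receptor chain, was lower by -0.69 ± 0.18, a call lost without TKO replicate 1 (adjusted p = 0.11), without DKO replicate 1 (0.060), with DESeq2 (0.076), without library as a block (0.15) and in cells with 0 Trac UMIs (0.058). Tnf lost its call without library as a block (adjusted p = 0.066). Among IL-17 receptors and adaptors 3 of 12 were higher (Cebpb, Il17re and Tnfaip3) and 1 lower (Traf3). Traf3 was lower by -0.44, with an adjusted p of 0.035 that ran from 0.084 to 0.32 under 6 of the alternatives, and Tnfaip3 was higher by 0.44, a call lost without DKO replicate 2 (0.063). Il17re was higher by 1.76 ± 0.25 (edgeR adjusted p = 1.9e-04). None of 8 genes that IL-17 is known to induce passed, and neither of 2 inducing cytokine genes did. The 4 other IL-17 family ligands had too few counts to be tested.

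Beyond the lists, the genes with the largest differences that had 20 CPM or more on the higher side in every library were, besides the gate gene Trdc, Cd163l1, Trdv4, Trdj1, Sema6a, Hs6st2, Mtcl1, Tcrg-V6, Fat3 and Sox13 on the higher side. Trdv4, Trdj1 and Tcrg-V6 are gene segments of the gamma-delta receptor. Tcrg-V6 had 31.6, 34.6, 100 and 92.7 CPM in Trdc-positive cells, against 0.638, 0.762, 4.36 and 1.45 CPM in the others. On the lower side were Chn2, Cd4, Itgb8, St8sia1, Lag3, Cd8b1, Swap70, Tbc1d30, Cd6 and Plagl1, of which Cd4 and Cd8b1 are the co-receptors of alpha-beta T cells. Cd8b1 lost its call without TKO replicate 1 (adjusted p = 0.052).

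TKO and DKO tumours were then compared to ask whether deletion of Pygo2 in the epithelium goes with a change of the axis. No label ties a library to a collection time. The part that time, or any other difference between the tumours of each genotype, has in these values was not tested. Over 7 fits of library sums (all cells and 6 classes), 34 tests of members gave 0 with an edgeR adjusted p under 0.05 and 0 with DESeq2, and 10 with an unadjusted p under 0.05. The share of all genes tested that passed was 0% over all cells, 0.036% for T- and NK-like cells, 0% in gamma-delta T-like cells, 0.0985% in mixed T-like cells, 0.011% in neutrophil-like cells, 0.0354% in dendritic-like cells and 0.0264% in macrophage- and monocyte-like cells. An unadjusted p under 0.05 was reached by 2 of 8 members in all cells, against 1830 of 15466 genes, by 0 of 7 in T- and NK-like cells (606 of 11115 genes) and by 3 of 4 in gamma-delta T-like cells (261 of 3904 genes). It was reached by 2 of 7 members in mixed T-like cells (494 of 7107 genes), 0 of 3 in neutrophil-like cells (362 of 9084), 1 of 2 in dendritic-like cells (576 of 8475) and 2 of 3 in macrophage- and monocyte-like cells (543 of 7586). The same cells and libraries enter several of these fits, and members of low count are tested only through the group where they are high, so nothing is read from these member counts. DESeq2 called 352 genes in all cells and 0 in gamma-delta T-like cells. In all cells 8 of 8 members were tested, and fewer cells of a type cannot be told apart there from less RNA per cell. With 2 libraries a genotype an exact permutation test of a share cannot go below p = 0.33.

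In gamma-delta T-like cells the receptor and cytokine were higher in both TKO libraries without passing the test. Il23r had 191 and 140 UMIs in 20 and 10 cells of TKO tumours and 145 and 144 UMIs in 24 and 19 cells of DKO tumours. Its log2 change was 0.96 ± 0.25 (SE, edgeR adjusted p = 0.57), and it passed with no filter on low counts (adjusted p = 0.028) and when TKO replicate 1 was left out (1.25, adjusted p = 2.3e-04). Il17a had 246 and 44 UMIs in TKO tumours and 92 and 23 UMIs in DKO tumours, with 158 of the 246 in 1 cell. Its log2 change was 1.83 ± 0.67 (SE, edgeR adjusted p = 0.64), and it passed without DKO replicate 1 (3.18, adjusted p = 1.1e-06). Without TKO replicate 1, which holds the cell of 158 UMIs, it was 0.90 (adjusted p = 0.79), and without DKO replicate 2 it was 1.13 (adjusted p = 0.47). Blk changed by 0.62 ± 0.26 and Zbtb16 by -0.22 ± 0.26 (SE, edgeR adjusted p = 0.70 and 0.97), and Zbtb16 changed sign without DKO replicate 2 (0.11). The same sums carried 11 neutrophil markers at 205 and 179 CPM in TKO tumours and 1703 and 209 CPM in DKO tumours, and their part in these values was not tested.

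Within mixed T-like cells Zbtb16 had a log2 change of -0.50 ± 0.18 (SE, edgeR adjusted p = 0.61), with both TKO libraries below both DKO libraries, and it passed without DKO replicate 2 (-0.75, adjusted p = 0.0010). Ccr6 changed by 1.09 ± 0.48 (adjusted p = 0.70) and its TKO libraries were both the higher. Il23r changed by -0.10 ± 0.22, Il17a by 0.41 ± 0.53, Il17f by 0.30 ± 0.88, Il17ra by 0.22 ± 0.40 and Blk by -0.02 ± 0.42 on the log2 scale, and each of these 5 changed sign without at least 1 library. The fit was chosen after seeing that this group holds most Il17a. Genes called there included Cpm, a carboxypeptidase gene, with 145 and 137 UMIs in TKO tumours and 3 and 6 in DKO tumours (3.88 ± 0.36, SE, edgeR adjusted p = 1.1e-04). In T- and NK-like cells as a whole Cpm (2.37), Gpr55 (-3.17) and Olfr1369-ps1 (-4.84) led the 4 genes called, and each of these 3 lost its call without TKO replicate 2 (adjusted p = 0.051 to 0.10). Among mixed T-like cells Slc35f3 (-4.68 ± 0.50) and E030030I06Rik (-3.54 ± 0.50) were lower in TKO tumours.

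**Figure D5:**
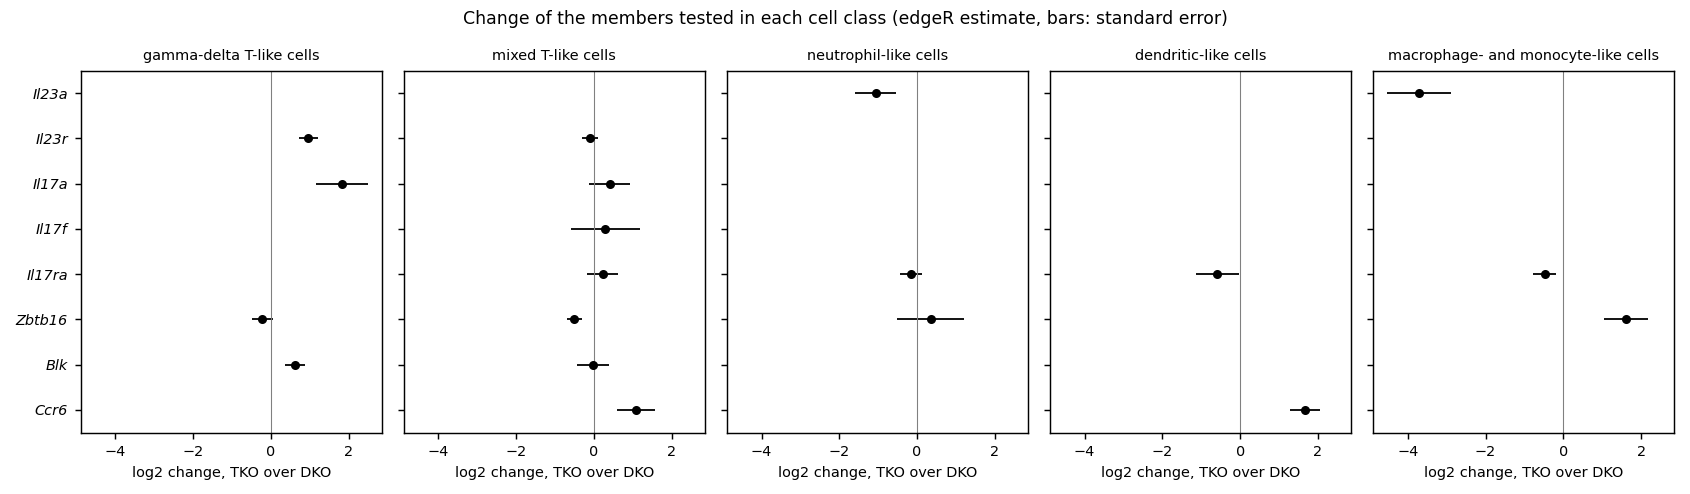
Log2 change (TKO over DKO) of each member tested in 5 cell classes, with its standard error. No point passed an adjusted p of 0.05, and the farthest from 0 is Il23a in macrophage- and monocyte-like cells at -3.71, where 1 cell of each DKO library holds most of the UMIs.

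In neutrophil-like cells Il23a had 597 and 171 UMIs in TKO tumours and 1075 and 236 UMIs in DKO tumours, a log2 change of -1.06 ± 0.52 (SE, edgeR adjusted p = 1.0). Without DKO replicate 1, the library with the most Il23a, it was -0.0013. The share of positive cells was lower by -4.34 percentage points (exact permutation test, two-sided p = 0.667, n = 2 each), and without DKO replicate 1 it was 1.10 points higher. After thinning each cell to 1000 UMIs the share was 6.90% and 5.05% in TKO tumours and 16.2% and 6.67% in DKO tumours. In macrophage- and monocyte-like cells Il23a changed by -3.71 ± 0.83 (SE, edgeR adjusted p = 0.37), and it passed with no filter on low counts (adjusted p = 0.0055). It was tested only through the DKO tumours, where single cells held 20 of the 21 and 7 of the 10 UMIs, with 1 and 2 UMIs in TKO tumours. Zbtb16 changed there by 1.62 ± 0.57 (SE, edgeR adjusted p = 0.58), with 28 and 21 UMIs in TKO tumours and 6 and 6 in DKO tumours. The same sums carried 11 T cell marker genes at 445 and 119 CPM in TKO tumours and 108 and 135 CPM in DKO tumours. Their part in the Zbtb16 counts was not tested. Chil1 (5.07) and Plac8 (1.93) were the 2 genes called in these cells, and both lost their call without TKO replicate 1 (adjusted p = 0.084), Plac8 also without TKO replicate 2 (0.27). Rdh12, a retinol dehydrogenase gene, was the 1 gene called in neutrophil-like cells, with 550 and 395 UMIs in TKO tumours and 19 and 13 in DKO tumours.

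In dendritic-like cells Ccr6 had 24.6 and 18.9 CPM in TKO tumours and 7.44 and 6.82 CPM in DKO tumours, a log2 change of 1.66 ± 0.38 (SE, edgeR adjusted p = 0.30) that passed with no filter on low counts (adjusted p = 0.022). Il12b, the partner of Il23a, was 1 of the 3 genes called there, with Ifi202b (-7.0) and Ppfia4 (-5.0), both of which lost their call without TKO replicate 1 or TKO replicate 2, and Ppfia4 also without DKO replicate 1. It had 199 and 101 UMIs in TKO tumours and 5 and 1 UMIs in DKO tumours, a log2 change of 4.83 ± 0.48 (SE, edgeR adjusted p = 0.031). The highest cell held 134 and 70 of those UMIs in TKO tumours and 4 and 1 in DKO tumours. Without that cell in each library the sums were 65 and 31 UMIs in TKO tumours and 1 and 0 UMIs in DKO tumours, and the log2 change of 5.56 ± 0.74 no longer passed (adjusted p = 0.079). It also missed the threshold without TKO replicate 2 (adjusted p = 0.067), and over all alternatives the adjusted p ran from 1.3e-25 to 0.079. The positive cells were 10 of 88 and 7 of 55 in TKO tumours and 2 of 38 and 1 of 43 in DKO tumours. No other gene of the 7 pathway lists passed in the 7 fits of TKO and DKO.

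The share of T- and NK-like cells that were gamma-delta T-like was 5.57% and 3.23% in TKO tumours and 21.2% and 8.23% in DKO tumours. The difference of -10.3 percentage points had the smallest p this design can give (exact permutation test, two-sided p = 0.33, n = 2 each). Without DKO replicate 1 it was -3.83 points and without DKO replicate 2 it was -16.8 points. The 95% intervals were 3.44% to 8.47% and 1.56% to 5.85% in TKO tumours and 14.1% to 29.9% and 5.02% to 12.5% in DKO tumours. The share that were mixed T-like was 20.6% and 23.9% in TKO tumours and 16.8% and 20.8% in DKO tumours (exact permutation test, two-sided p = 0.667, n = 2 each). An Il17a UMI was present in 15.9% and 16.1% of T- and NK-like cells of TKO tumours and 17.7% and 13.9% of those of DKO tumours. These values differed by 0.23 percentage points (exact permutation test, two-sided p = 1.0, n = 2 each), and by -1.70 points without DKO replicate 2.

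Levels across the 18 named cell groups were set against those of all genes with at least 50 UMIs, by Pearson's r of log2(CPM + 10), as a description, since the groups share libraries and differ in depth. The genes most like Il23r included Ppp1r14c (0.98), Aqp3 (0.97), Scrt1 (0.97) and Prss12 (0.96). Those most like Il17a were Olfr60, Aqp3, Prss12, Actn2 and Fbxo27 (0.97 each), and Il17a itself had an r of 0.96 with Il23r and of 0.87 with Il17f. Il17f, added to this comparison after its values were seen, was most like B4galnt4 (0.91) and Il22 (0.90), the gene of another type 17 cytokine. Il23a was most like Nlrp12 (0.99), Armc4, Scrg1, Amer2 and Musk, and had an r of -0.098 with Il23r. Zbtb16 was most like Pde5a (0.96), Blk like Cdh10 (0.93), Ccr6 like Ankrd55 (0.81) and Il17ra like the leukocyte gene Cd53 (0.83).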

How the data were processed

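Single cells of 4 mouse prostate tumour libraries (2 TKO, 2 DKO) were measured after dissociation, red cell lysis, removal of Annexin V-positive cells and antibody tagging, per the labels' protocols. The deposited counts are whole UMI counts per gene and cell, made by the authors with Cell Ranger 7.0.0, STAR and the mm10 build, per the submitters' processing notes. Kept cells had 200 genes or more and no more than 20% of UMIs from mitochondrial genes. No doublet caller was run. The leading tag of each cell is the only check, and it cannot show doublets within a library. Clusters (scanpy 1.11.5, leidenalg 0.10.2, Leiden resolution 1.0, 2000 variable genes, 30 components, 20 neighbours) were made without the members and listed genes. A cluster was named when at least 3 markers were raised by 1.0 on the log2 scale, and 37 shallow cells stayed unnamed. The naming thresholds were set after seeing the clusters, as were the mixed T-like fit and share.

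CPM is a gene's UMIs scaled to a common total of all UMIs of the same cells. Levels between genes are not corrected for length, since the assay tags 3′ ends. Library sums were tested with edgeR 4.0.16 (quasi-likelihood, TMM, filterByExpr). Members of low count pass that filter through the higher group. DESeq2 and the other alternatives are in the closing section. SE is the log2 change divided by the square root of F. Shares have exact binomial 95% intervals and exact permutation tests (scipy 1.17.1), and were repeated with each cell thinned to 1000 UMIs. The steps were tested on simulated data. Same-numbered replicates had a correlation of 0.067 of their deviations over 2 pairs, so numbers were not taken as pairs.

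The members and lists were chosen with earlier results of these data known. Genes named are the members, the called genes of 7 lists with examples, up to 3 called genes with the smallest p per TKO and DKO fit, 10 each way of at least 20 CPM in the Trdc comparison, and the 5 genes most like a member. Antisense and paralogous genes were not separated further. Sequences and positions come from RefSeq (GRCm38.p6) and GENCODE. Some alleles and genes that these rules would name are not reported here.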

Additional observations from a re-analysis of the deposited data

Results flagged for a closer look

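Zbtb16 had a log2 change of -0.50 (TKO over DKO) in mixed T-like cells, where both TKO libraries were below both DKO libraries, and of 1.62 in macrophage- and monocyte-like cells, where both were above. The difference between these 2 groups was not tested, and neither change passed on its own. The change in macrophage- and monocyte-like cells rests on 28 and 21 UMIs in TKO tumours and 6 and 6 in DKO tumours. The part of T cell RNA in these counts was not tested. Antibody tags assigned to none of the 4 libraries made up 0.391% and 1.23% of tag UMIs in TKO libraries and 0.493% and 0.388% in DKO libraries, in data that the comparisons do not use.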

How the results depend on the processing

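The number of genes called between TKO and DKO depended on the method. DESeq2 called 352 genes over all cells (edgeR 0), 26 in T- and NK-like cells (4), 31 in dendritic-like cells (3), 43 in macrophage- and monocyte-like cells (2) and 16 in neutrophil-like cells (1). With no filter on low counts edgeR called 276, 136, 236, 206 and 82 in the same order, and 29 in gamma-delta T-like (0) and 69 in mixed T-like cells (7). With the replicate number as a block it called 6, 9, 39, 7 and 2, and 52 in mixed T-like cells, and no member passed in these block fits. Same-numbered libraries shared only a number. A stricter cell filter gave 5 in dendritic-like cells. Leaving out 1 library gave 0 to 113 calls over all cells, 1 to 68 in T- and NK-like, 1 to 36 in dendritic-like, 7 to 114 in gamma-delta T-like, 0 to 86 in macrophage- and monocyte-like, 16 to 144 in mixed T-like and 3 to 29 in neutrophil-like cells, and 674 to 1023 in the Trdc comparison.

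Leaving out 1 library moved the difference in share (TKO minus DKO, percentage points) from -16.8 to -3.83 for gamma-delta T-like cells, 1.46 to 5.43 for mixed T-like cells, -1.70 to 2.15 for Il17a-positive cells, -7.33 to -1.76 for Il23a-positive dendritic-like cells and -9.78 to 1.10 for Il23a-positive neutrophil-like cells. Some log2 changes changed sign when 1 library was left out, and their ranges follow. In T- and NK-like cells these were Blk from -0.88 to 0.58, Il17a from -0.27 to 1.5, Il17f from -0.41 to 0.14 and Il23r from -0.57 to 0.21. In mixed T-like cells these were Blk from -0.68 to 0.84, Il17a from -0.23 to 1.25, Il17f from -1.46 to 1.05, Il17ra from -0.080 to 0.92 and Il23r from -0.37 to 0.14. In all cells these were Il17ra from -0.29 to 0.30, Il23a from -2.26 to 0.33, Il23r from -0.029 to 1.01 and Zbtb16 from -0.16 to 0.77. In dendritic-like cells these were Il17ra from -1.21 to 0.43. In neutrophil-like cells these were Il17ra from -0.46 to 0.10 and Zbtb16 from -0.75 to 1.35. In gamma-delta T-like cells these were Zbtb16 from -0.48 to 0.11. In the Trdc comparison these were Il17ra from -0.025 to 0.13. In mixed T-like cells Blk also changed sign with no filter (0.037) and with the replicate block (0.075), and Il17f with the replicate block (-0.14). In the Trdc comparison Il17ra was -0.067 in cells with 0 Trac UMIs. The cause was not tested. A planned comparison of Trdc-positive cells with 0 Trac, Trbc1 and Trbc2 UMIs left 2, 2, 1 and 0 cells and was not run. Depth limits what can be said of sparse members, of 10 to 24 gamma-delta T-like cells a library, and of 2 libraries a genotype.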
